A study of Mus musculus with 14 samples.

Results

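The genes described here encode the high-mobility group box proteins HMGB1, HMGB2 and HMGB3 (Hmgb1, Hmgb2, Hmgb3), 5 toll-like receptors (Tlr2, Tlr3, Tlr4, Tlr7, Tlr9), the co-receptor CD14 (Cd14) and the adaptor MyD88 (Myd88). They were chosen by name, as 10 of the 56941 genes of the count table, with earlier results of these data known. Aortic valve leaflets of 14 male wild type mice of strain C57BL/6J (C57BL/6 in the sample labels) were profiled by bulk RNA-seq, 1 library per mouse. All mice entered the study at 8 weeks of age. The study's methods describe a hypercholesterolemic diet (Breslow Western Diet) together with the angiotensin II infusion and do not name the controls. Whether the untreated controls carried this load as well is not stated there. The 4 Ctrl mice received neither of the agents named below. The 2 LY mice were given the compound LY272015, which blocks the serotonin receptor HTR2B, at 3 mg/kg intraperitoneally. The 4 AngII mice received angiotensin II from a subcutaneous osmotic pump at 1000 ng/kg/min over 28 days, and the 4 AngII+LY mice received both agents. According to the series text, mice of both infused groups were sampled 48 hours after their pumps had been taken out, whereas the study's methods describe removal in a subset, so the values may hold a time without infusion. The dosing interval of LY272015 is given differently in the series text and in the sample labels, and the labels of 4 of the 6 dosed mice carry other compound numbers, so these mice were assigned to LY272015 by their titles. The series text states 4 mice in each group, and 2 LY libraries were analysed here.

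HMGB proteins are abundant nuclear proteins that bend DNA and assist transcription and repair. HMGB1 that leaves dying or activated cells acts as an alarmin, a signal of tissue damage, which is sensed by TLR4 with its partners CD14 and MD-2, by TLR2 and by the receptor RAGE. TLR3, TLR7 and TLR9 sense nucleic acids in endosomes; TLR2, TLR4, TLR7 and TLR9 signal through MyD88 to NF-kB, whereas TLR3 signals through the adaptor TRIF (Ticam1). In the aortic valve, toll-like receptors have been studied chiefly in interstitial cells, the fibroblast-like cells that build the leaflet, and in resident macrophages.

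The coding ends of the HMGB genes are shown first, because the proteins share an acidic C-terminal tail and because the genes have near-identical copies that bear on how their reads can be counted. The last 90 coding bases before the stop codon of the canonical transcripts (GENCODE vM39 on GRCm39, each inside exon 5) are given 5′ to 3′ on the coding strand, with codons for glutamate or aspartate in capitals. They lie at chr5:148985550-148985639 on the minus strand for Hmgb1, chr8:57967069-57967158 on the plus strand for Hmgb2 and chrX:70603318-70603407 on the plus strand for Hmgb3.
Hmgb1: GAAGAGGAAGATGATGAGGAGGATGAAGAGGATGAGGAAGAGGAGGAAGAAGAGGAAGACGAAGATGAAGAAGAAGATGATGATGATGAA
Hmgb2: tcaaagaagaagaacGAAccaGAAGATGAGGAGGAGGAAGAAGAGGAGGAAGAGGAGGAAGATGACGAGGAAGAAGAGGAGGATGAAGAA
Hmgb3: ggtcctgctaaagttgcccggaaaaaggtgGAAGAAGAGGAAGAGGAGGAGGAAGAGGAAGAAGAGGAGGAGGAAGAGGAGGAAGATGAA
Of the 30 codons shown, 30 were acidic in Hmgb1, 24 in Hmgb2 and 20 in Hmgb3, and the longest unbroken acidic run was 30, 23 and 20 codons. The whole coding sequences hold 215, 210 and 200 codons before the stop. Aligned bases were 78.8% identical between Hmgb1 and Hmgb2, 76.7% between Hmgb1 and Hmgb3 and 74.4% between Hmgb2 and Hmgb3, but the longest exact match between any pair was 27 bases, shorter than a usual read. Copies elsewhere in the genome were closer. Of all 75-base windows of the Hmgb1 coding sequence, 98.4% occurred unchanged in at least 1 of 89 other annotated genes, mainly processed pseudogenes. The corresponding shares were 94.99% for Hmgb2 (5 genes) and 69.4% for Hmgb3 (2 genes), and 0% for each toll-like receptor, Cd14 and Myd88. In the count table Hmgb1 held 101653 counts over all libraries and the 84 of its look-alike genes present there held 13686 together, led by Gm21596 with 3752. Hmgb2 held 21655 counts beside 1821 for its leading copy Gm4739, and Hmgb3 held 21162 beside 416 for Gm6104. How reads with several matches were treated is not given in the sources used here, so the HMGB counts are uncertain. The windows cover coding bases only (648 for Hmgb1, whose exons hold 6753 bases). Sharing in the rest of the exons was not examined, so the extent of this uncertainty was not measured.

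Hmgb1 (ENSMUSG00000066551, chromosome 5 from 148983445 to 149121815) and Hmgb2 (ENSMUSG00000054717, chromosome 8 from 57964687 to 57969276) are autosomal, and Hmgb3 (ENSMUSG00000015217) lies on chromosome X from 70591492 to 70605868. The surface receptors are Tlr2 (ENSMUSG00000027995, chromosome 3 from 83743576 to 83749074) and Tlr4 (ENSMUSG00000039005, chromosome 4 from 66745783 to 66849936). The endosomal receptors are Tlr3 (ENSMUSG00000031639, chromosome 8 from 45848702 to 45864117), Tlr7 (ENSMUSG00000044583, chromosome X from 166086758 to 166113605) and Tlr9 (ENSMUSG00000045322, chromosome 9 from 106099797 to 106104082). Myd88 (ENSMUSG00000032508) lies on chromosome 9 from 119165000 to 119170486, and Cd14 (ENSMUSG00000051439) on chromosome 18 from 36858120 to 36859851, all on GRCm39. Exons of Myd88 share 628 bases, 16.2% of its exon length, with Acaa1a on the opposite strand, and exons of Hmgb1 share 437 bases (6.47%) with Uspl1. The strand setting of the read counting is not given, so reads in these stretches cannot be told apart. Acaa1a held 82043 counts over all libraries against 23881 for Myd88, and Uspl1 held 30218.

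Counts on genes ranged from 20990655 in AngII 4 to 73128220 in AngII 2. The share of mitochondrial genes was 4.00 to 7.52% in Ctrl and 8.62 to 9.76% in LY libraries, and it ranged from 9.83 to 25.5% with AngII and from 10.1 to 20.2% with both agents. AngII 4 combined the fewest counts with the highest mitochondrial share, and it was also the AngII library with the highest Hmgb1 and Tlr4 and the lowest Myd88 and Cd14. The labelled tissue was checked against marker genes: valve interstitial markers (7 of 7 detected) summed to 5124 to 17057 CPM (counts scaled to an equal library total) and valve endothelial markers (6 of 6) to 1104 to 2553 CPM, while cardiomyocyte markers (10 of 10) reached 6183 to 44006 CPM, so that the libraries also held heart muscle RNA. Smooth muscle markers summed to 7397 CPM in Ctrl 1 and to at most 1420 CPM in any other library. Levels below are CPM scaled by TMM factors, and in bulk tissue fewer cells of a type and less RNA per cell cannot be told apart.

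Per kilobase of exon, Hmgb1 had the highest mean of the 10 genes in every group, overlapping Cd14 in Ctrl. Its level was 16.9 ± 3.76 CPM per kb (SD, n = 4) in Ctrl, 19.8 ± 2.59 (SD, n = 2) in LY, 25.1 ± 5.29 in AngII (SD, n = 4) and 18.6 ± 4.12 in AngII+LY mice (SD, n = 4). In Ctrl the next levels per kb were Cd14, Myd88, Hmgb2, Tlr4, Tlr2, Hmgb3 and Tlr3, and each neighbour in this order overlapped the next. Tlr7 stood apart below them at 0.655 ± 0.408 CPM per kb (SD, n = 4), and Tlr9 lay at the limit of detection. In AngII the order began with Hmgb1, Tlr4 and Tlr3, each without overlap to the next except for Tlr3 and Cd14. Tlr4 averaged 6.11 ± 3.04 CPM per kb in Ctrl and 12.5 ± 5.001 in AngII, and Cd14 14.7 ± 5.23 and 7.49 ± 2.10 (SD, n = 4 each), so that their order was inverted. The ratio of Tlr4 to Cd14 per kb, chosen after its parts had been seen, ran from 0.198 to 0.892 in Ctrl, from 1.01 to 3.72 in AngII and from 0.391 to 0.976 in AngII+LY libraries. In LY it was 0.384 and 0.678. All AngII libraries therefore lay above all others in this ratio, a description with no test. The longest transcripts of Tlr4 and Cd14 hold 39.6% and 52.5% GC. Over all genes, log2 fold changes of AngII against Ctrl followed GC content (Spearman's rho -0.53). With each library's GC trend removed, this log2 fold change was 0.46 in place of 1.03 for Tlr4. For Cd14 it was -0.57 in place of -0.95. The ratio was not taken after this correction, and the share of gene pairs so separated was not counted.

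Levels of the HMGB genes were read library by library, and the genes were not tested against each other. Hmgb1 had 129, 91.3, 94.4 and 142 CPM in the Ctrl libraries 1 to 4, 122 and 146 CPM in LY, 138, 149, 175 and 218 CPM in AngII, and 166, 109, 107 and 120.4 CPM in AngII+LY. The AngII libraries were high, with 3 of 4 above every Ctrl library, and the AngII+LY libraries overlapped both. Hmgb2, the relative linked to proliferating cells, had 34.8, 24.4, 35.02 and 24.6 CPM in Ctrl, 23.8 and 31.7 CPM in LY, 28.1, 30.1, 31.9 and 27.1 CPM in AngII, and 26.4, 28.3, 25.7 and 22.0 CPM in AngII+LY. Every group of Hmgb2 overlapped every other. Hmgb3 had 13.3, 34.7, 24.7 and 16.3 CPM in Ctrl, 28.5 and 21.1 CPM in LY, 22.4, 14.4, 36.9 and 24.5 CPM in AngII, and 38.4, 20.2, 44.5 and 60.7 CPM in AngII+LY. Here 3 of the 4 AngII+LY libraries exceeded every library of the other groups.

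**Figure D1:**
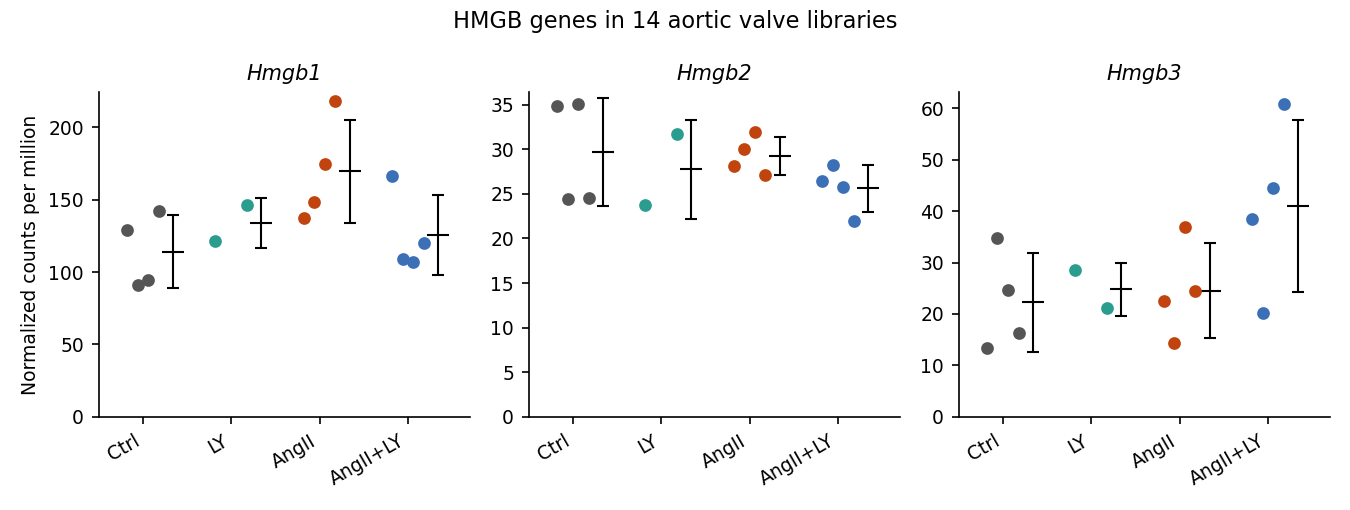
Levels of Hmgb1, Hmgb2 and Hmgb3 in TMM-normalized CPM on linear axes from 0; each point is 1 mouse and bars give the mean ± SD of the group. Hmgb1 ran highest in AngII (138 to 218 CPM), Hmgb3 highest in AngII+LY (20.2 to 60.7 CPM), and the groups of Hmgb2 overlapped.

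Among the receptors, Tlr3 ran highest in AngII, while its other groups overlapped each other. It had 12.7, 28.6, 19.7 and 29.0 CPM in Ctrl, 27.0 and 23.7 CPM in LY, 40.5, 45.4, 39.3 and 46.0 CPM in AngII, and 14.9, 35.5, 20.2 and 12.2 CPM in AngII+LY. No AngII library overlapped a library of any other group. Against Ctrl alone, 7.46% of all tested genes were higher in AngII without overlap, and the share against all other groups was not counted. Tlr4 had 31.0, 21.3, 49.1 and 69.7 CPM in Ctrl, 28.9 and 52.5 CPM in LY, 66.3, 74.3, 70.5 and 140.2 CPM in AngII, and 64.4, 48.5, 42.9 and 23.8 CPM in AngII+LY. Only Ctrl 4 reached into the AngII range, and AngII 4 stood far above the other AngII libraries. Tlr2 had 29.2, 30.6, 25.4 and 24.1 CPM in Ctrl, 8.46 and 26.5 CPM in LY, 26.3, 33.9, 14.9 and 18.1 CPM in AngII, and 12.8, 10.2, 20.4 and 6.66 CPM in AngII+LY. All AngII+LY libraries lay below all Ctrl libraries, and LY 1 lay low as well.

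The nucleic acid sensors Tlr7 and Tlr9 were scarce. Tlr7 had 5.86, 4.60, 1.06 and 2.37 CPM in Ctrl, 4.72 and 7.43 CPM in LY, 1.56, 6.91, 6.26 and 6.43 CPM in AngII, and 6.36, 1.18, 6.35 and 2.66 CPM in AngII+LY, with overlap between all groups. Tlr9 counts were 4, 2, 0 and 0 in the Ctrl libraries and 0 and 11 in LY, and 0 in all 8 AngII and AngII+LY libraries. A count of 0 allows up to 3 counts, which is 0.0371 CPM in AngII 2 and 0.18 CPM in AngII 4, so a difference between the groups was not detectable at this depth. Such limits cover counting error only.

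The co-receptor and the adaptor ran lower in AngII. Cd14 had 38.7, 20.1, 23.8 and 19.3 CPM in Ctrl, 18.6 and 19.1 CPM in LY, 16.3, 15.9, 10.4 and 9.31 CPM in AngII, and 16.3, 17.7, 17.8 and 15.1 CPM in AngII+LY. All Ctrl libraries exceeded all libraries of the other groups, with Ctrl 1 far above the other Ctrl libraries. Of all tested genes, 7.56% were lower in AngII than in Ctrl without overlap, and the share with the whole pattern was not counted. Myd88 had 36.5, 43.6, 35.6 and 33.1 CPM in Ctrl, 40.2 and 27.3 CPM in LY, 30.7, 27.4, 18.4 and 10.9 CPM in AngII, and 31.4, 33.5, 21.1 and 21.5 CPM in AngII+LY. The AngII libraries lay below all Ctrl libraries, and AngII+LY libraries lay between and across both.

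**Figure D2:**
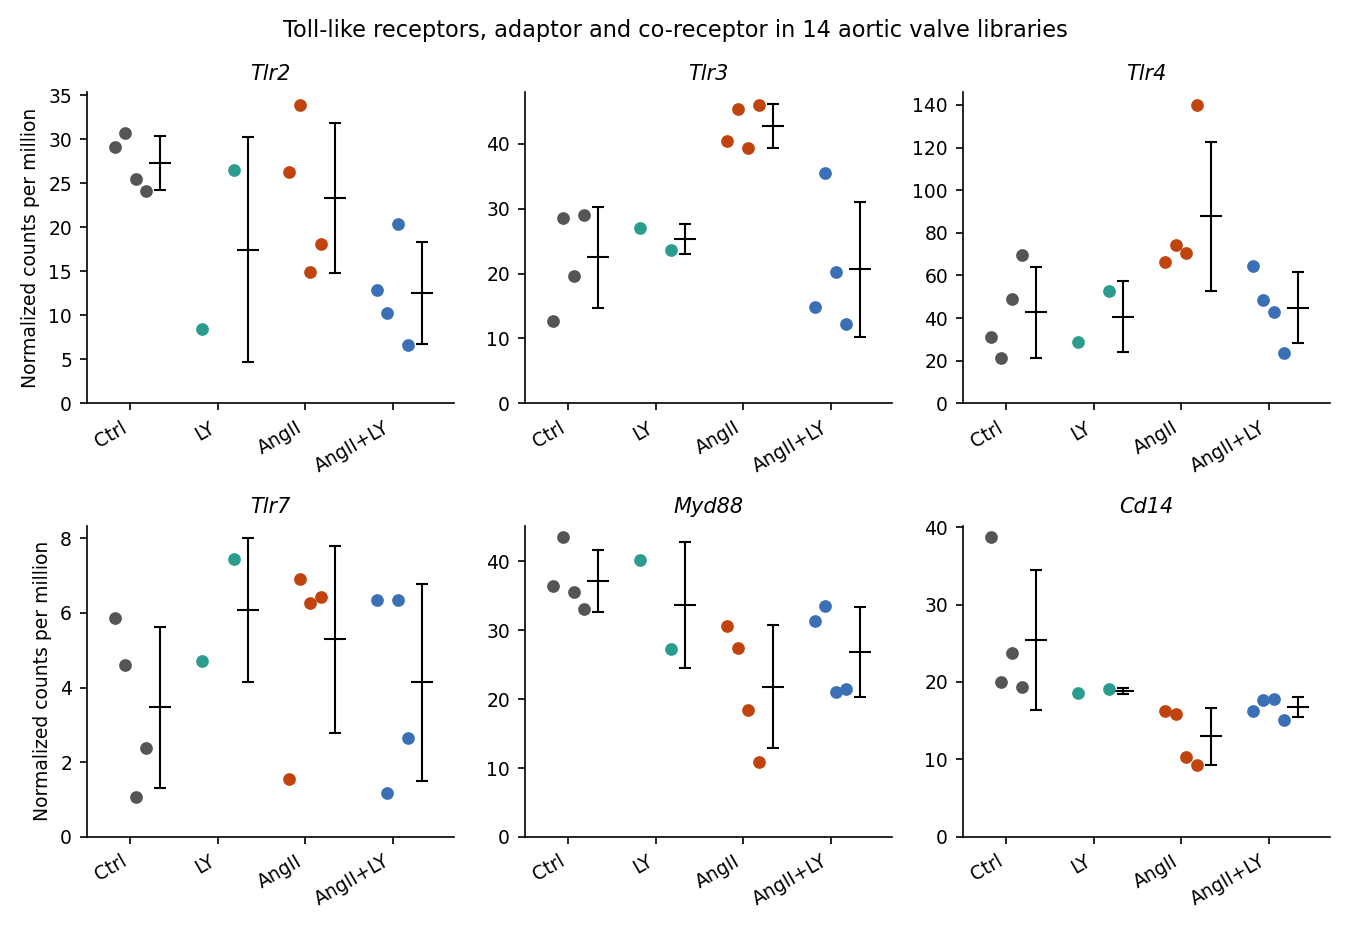
Levels of 4 toll-like receptors, Myd88 and Cd14 in TMM-normalized CPM on linear axes from 0; each point is 1 mouse and bars give the mean ± SD of the group. Tlr3 in AngII (39.3 to 46.0 CPM) lay above every other library, whereas Cd14 (9.31 to 16.3 CPM) and Myd88 (10.9 to 30.7 CPM) in AngII lay below every Ctrl library.

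The first comparison asked which of these genes differed after AngII. Tlr4, Tlr3 and Hmgb1 were higher and Cd14 and Myd88 lower in AngII than in Ctrl mice, but none of the 9 genes that could be tested was called. A call required an edgeR Benjamini-Hochberg adjusted p under 0.05 over the 19145 genes whose count averaged 10 or more, and an absolute log2 fold change above 0.5. Over all tested genes 2.90% were called. Tlr9 failed the count minimum. Of the 9 genes, 3 were higher and 2 lower at an unadjusted p under 0.05, a level reached by 27.6% of all tested genes (15.0% higher and 12.6% lower). This count of 5 was 3 without AngII 4 or without Ctrl 2, and 2 after GC correction. One gene (Tlr3) was higher without overlap of libraries and a pair (Cd14 and Myd88) lower without overlap, where the shares of all genes were 7.46% and 7.56%. The median log2 fold change was 0.14 over the 9 genes and -0.05 over all tested genes.

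Cd14 had the smallest p, with a log2 fold change of -0.95 (SE 0.26, 95% interval -1.49 to -0.40, edgeR adjusted p = 0.0536), a mean of 12.96 ± 3.64 CPM in AngII (SD, n = 4) against 25.5 ± 9.06 CPM in Ctrl (SD, n = 4). Without Ctrl 1 its log2 fold change was -0.67 (edgeR adjusted p = 0.143). For Tlr3 the log2 fold change was 0.92 (SE 0.31, 95% interval 0.26 to 1.59, edgeR adjusted p = 0.0885). Tlr4 differed by 1.03 on the log2 scale (SE 0.38, 95% interval 0.22 to 1.84, edgeR adjusted p = 0.109), and by 0.72 without AngII 4. The log2 fold change of Hmgb1 was 0.57 (SE 0.21, 95% interval 0.12 to 1.02, edgeR adjusted p = 0.109), which corresponds to a 1.48-fold higher level. Myd88 differed by -0.74 (SE 0.28, 95% interval -1.33 to -0.15, edgeR adjusted p = 0.111). Acaa1a, which shares exon bases with Myd88, differed in the same direction, by -0.65 (edgeR adjusted p = 0.105). The remaining genes had intervals that included 0: Hmgb2 at -0.02 (-0.41 to 0.38), Hmgb3 at 0.14 (-0.64 to 0.92), Tlr2 at -0.21 (-0.9996 to 0.57) and Tlr7 at 0.58 (-0.66 to 1.81).

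DESeq2's Wald test, which the study used, called 4 of the members at the same cut-off. It called 8.72% of the 31872 genes to which it gave a p-value (5.65% higher and 3.07% lower). Some of these genes, such as Tlr9, got a p-value but no adjusted p and could not be called. Over the genes that could be called the share is therefore larger, and the same holds for the DESeq2 shares below. Tlr3 (DESeq2 adjusted p = 0.0292), Tlr4 (0.0461) and Hmgb1 (0.0475) were called higher and Cd14 (0.00473) lower. With AngII 4 or Ctrl 1 left out, Cd14 was the only member that DESeq2 called. Myd88 missed its threshold (DESeq2 adjusted p = 0.0538).

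**Figure D3:**
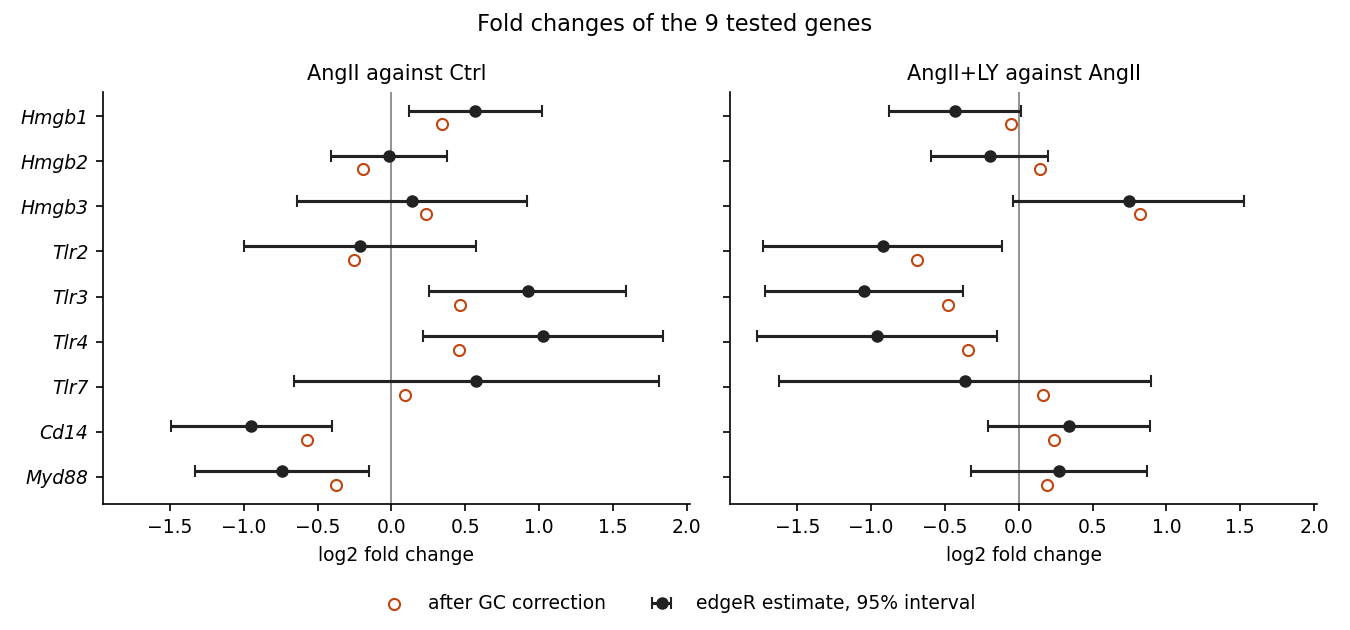
Log2 fold changes of the 9 tested genes for AngII against Ctrl (left) and AngII+LY against AngII (right); black points are edgeR estimates with 95% intervals and open points are the same estimates after removal of each library's trend with GC content. Tlr3 and Tlr4 lie to the right of 0 on the left (0.92 and 1.03) and to the left of 0 on the right (-1.05 and -0.96), and most open points lie nearer to 0.

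The second comparison asked which genes differed when LY272015 was given with AngII. Levels of Tlr3, Tlr4 and Tlr2 were lower with both agents than with AngII alone, and none of the 9 tested genes was called, where 0.919% of all tested genes were. At an unadjusted p under 0.05 all 3 of these receptors were lower and no member was higher. This level was reached by 24.8% of all tested genes in either direction, and 13.6% were lower at it. The count was 1 without AngII+LY 4. After GC correction it was also 1, but this was Hmgb3, which was higher (log2 fold change 0.82), and none of the 3 receptors. Tlr3 and Tlr4 were lower without overlap of libraries, as were 5.66% of all genes. Tlr3 averaged 20.7 ± 10.4 CPM in AngII+LY (SD, n = 4) and 42.8 ± 3.39 CPM in AngII (SD, n = 4), a log2 fold change of -1.05 (SE 0.32, 95% interval -1.72 to -0.38, edgeR adjusted p = 0.0749). It was past the threshold by DESeq2 (adjusted p = 0.0193), which called 7.07% of genes (3.57% lower) but not by DESeq2 without AngII 4, and with edgeR once AngII+LY 2 was left out (-1.42, edgeR adjusted p = 0.0475). Tlr4 averaged 44.9 ± 16.8 CPM (SD, n = 4) against 87.8 ± 35.1 CPM (SD, n = 4), a log2 fold change of -0.96 (95% interval -1.77 to -0.15, edgeR adjusted p = 0.142), or -0.65 without AngII 4. For Tlr2 it was -0.92 (95% interval -1.73 to -0.11, edgeR adjusted p = 0.153).

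Hmgb1 differed by -0.43 (95% interval -0.88 to 0.02, edgeR adjusted p = 0.218) and Hmgb3 by 0.74 (95% interval -0.04 to 1.53, edgeR adjusted p = 0.221). Without AngII+LY 4 the estimate for Hmgb3 was 0.49. The intervals of Cd14 (-0.21 to 0.89), Myd88 (-0.32 to 0.87), Hmgb2 (-0.60 to 0.20) and Tlr7 (-1.62 to 0.90) included 0. Because the AngII libraries enter both comparisons, with opposite signs, opposite directions in them are not independent of each other. Against Ctrl, AngII+LY libraries gave Tlr3 -0.13 (95% interval -0.79 to 0.54), Tlr4 0.07 (-0.74 to 0.87) and Hmgb1 0.14 (-0.31 to 0.58). Tlr2 stood lower at -1.14 (95% interval -1.94 to -0.33, edgeR adjusted p = 0.229), with all libraries below Ctrl, as for 4.89% of genes. Cd14 was lower at -0.61 (adjusted p = 0.306 by edgeR), also without overlap, but at -0.33 without Ctrl 1 or after GC correction, and Hmgb3 higher at 0.88 (adjusted p = 0.303 by edgeR). Of the 19145 genes edgeR called 0 between AngII+LY and Ctrl, with 13.8% at an unadjusted p under 0.05 (6.41% higher and 7.39% lower; Hmgb3 was among the former and Tlr2 and Cd14 among the latter, and the count of 3 was 1 without Ctrl 1 or AngII+LY 4), and DESeq2 called 380 (1.19%), none of them a member.

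Between LY and Ctrl mice no member reached an unadjusted p under 0.05, a level that 2.53% of all tested genes reached, and the intervals were wide with 2 LY mice. Tlr2 differed by -0.65 (95% interval -1.63 to 0.33), a value set by LY 1: it was -0.05 without that library. Cd14 differed by -0.43 (-1.09 to 0.23), with both LY libraries below all Ctrl libraries, as for 6.41% of all genes, and by -0.16 without Ctrl 1. The test of whether the difference with LY272015 depended on AngII gave the smallest p for Tlr3 among the members, with an interaction of -1.22 on the log2 scale (SE 0.49, edgeR adjusted p = 0.277), and 0 of 19145 genes were called in it (15.4% at an unadjusted p under 0.05). DESeq2 called 342 genes in this interaction, none of them a member. After GC correction the Tlr3 interaction was -0.56, and Cd14 had the smallest p of the members in its place (edgeR adjusted p = 0.589).

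The members also differed in base composition, and fold changes over all genes followed GC content. Genes are not independent replicates. GC content was taken from the longest transcript of each gene. Over 19043 genes the log2 fold change of AngII against Ctrl had a Spearman's rho of -0.53 with it, and that of AngII+LY against AngII one of 0.41. Windows of 120 coding bases are shown for the receptors with the largest positive estimates and for the adaptor, with G and C in capitals, to display this contrast. They lie on GRCm39 at chr4:66752131-66752250 on the plus strand (Tlr4, exon 2), chr8:45856005-45856124 on the minus strand (Tlr3, exon 4) and chr9:119167101-119167220 on the minus strand (Myd88, exon 3), each read 5′ to 3′ on the coding strand.
Tlr4: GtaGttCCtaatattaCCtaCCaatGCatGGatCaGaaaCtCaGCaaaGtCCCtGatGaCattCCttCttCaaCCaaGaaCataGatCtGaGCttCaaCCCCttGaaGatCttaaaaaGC
Tlr3: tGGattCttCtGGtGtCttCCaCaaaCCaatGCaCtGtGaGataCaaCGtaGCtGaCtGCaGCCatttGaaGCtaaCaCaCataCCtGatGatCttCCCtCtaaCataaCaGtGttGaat
Myd88: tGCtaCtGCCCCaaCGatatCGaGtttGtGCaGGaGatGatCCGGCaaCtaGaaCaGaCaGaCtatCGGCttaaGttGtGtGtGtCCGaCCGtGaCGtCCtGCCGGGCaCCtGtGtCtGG
The windows hold 40.0%, 42.5% and 55.0% G and C, close to the 40.3%, 42.1% and 55.8% of the whole coding sequences. In the longest transcript of each gene the GC content was 39.6% for Tlr4, 40.9% for Tlr7, 41.0% for Tlr3, 44.2% for Hmgb1, 44.8% for Hmgb2, 46.4% for Tlr2, 48.0% for Hmgb3, 52.5% for Cd14 and 52.6% for Myd88. The 3 genes that were higher in AngII at an unadjusted p under 0.05 had 44.2% or less, and the 2 that were lower had 52.5% or more.

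Each library was therefore also corrected for GC content. This moved the median log2 fold change of all genes between AngII and Ctrl from -0.05 to 0.10. Tlr4 then stood at 0.46 in place of 1.03, Tlr3 at 0.46 in place of 0.92, Hmgb1 at 0.34 in place of 0.57, Cd14 at -0.57 in place of -0.95 and Myd88 at -0.38 in place of -0.74. The direction of these 5 genes was kept, and their edgeR adjusted p ran from 0.207 to 0.531. Between AngII+LY and AngII, Tlr3 stood at -0.48, Tlr4 at -0.34 and Tlr2 at -0.69, whereas Hmgb3 stood at 0.82, and the Hmgb1 estimate was -0.05. Estimates of Tlr7 and Hmgb2 were positive after this correction (0.16 and 0.14) and negative before it (-0.36 and -0.20).

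**Figure D4:**
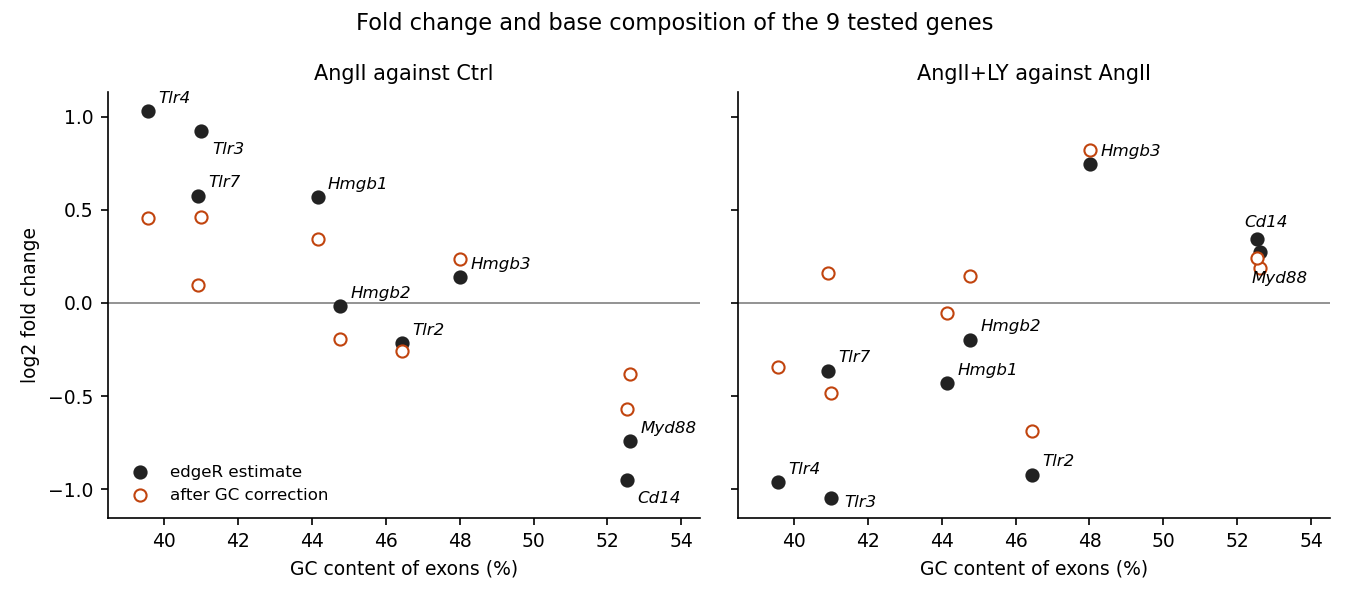
Log2 fold change of the 9 tested genes against the GC content of their longest transcripts in percent. The left panel shows AngII against Ctrl and the right panel AngII+LY against AngII. Black points are edgeR estimates, open points the values after GC correction. On the left the black points run downward from Tlr4 (39.6% GC, 1.03) to Cd14 (52.5% GC, -0.95), and the open points span a narrower range.

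Cell type markers were read beside the receptors. The 12 macrophage markers, all detected, summed to 530 to 2076 CPM in Ctrl, 961 to 1441 CPM in LY, 491 to 925 CPM in AngII and 618 to 1625 CPM in AngII+LY, with a log2 difference of -0.75 between AngII and Ctrl (exact 2-sided permutation test, p = 0.2; 4 mice against 4 allow no p below 0.0286). Tlr4 ran opposite to the mean log2 level of these markers in the libraries (n = 14, Pearson's r = -0.70, permutation p = 0.00533, adjusted p = 0.0187 over 4 correlations; Spearman's rho = -0.70, permutation p = 0.00702, adjusted p = 0.028). Without Ctrl 1 and Ctrl 2, the libraries farthest from the median, r was -0.61, and within groups it was -0.63 (permutation p = 0.0678). Cd14, a macrophage and monocyte receptor, ran with the markers (r = 0.68, permutation p = 0.00935, adjusted p = 0.0187; rho = 0.55, permutation p = 0.0439, adjusted p = 0.0878). This relation rested on Ctrl 1 and Ctrl 2, since r was 0.34 without them and 0.46 within groups (permutation p = 0.336). For Tlr7 r was 0.19 (permutation p = 0.529; rho = -0.04, permutation p = 0.902). Hmgb2 and 12 cell cycle markers gave r = 0.41 (permutation p = 0.141; rho = 0.22, permutation p = 0.454). The part of macrophage content in the Cd14 and Tlr4 differences was not tested.

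**Figure D5:**
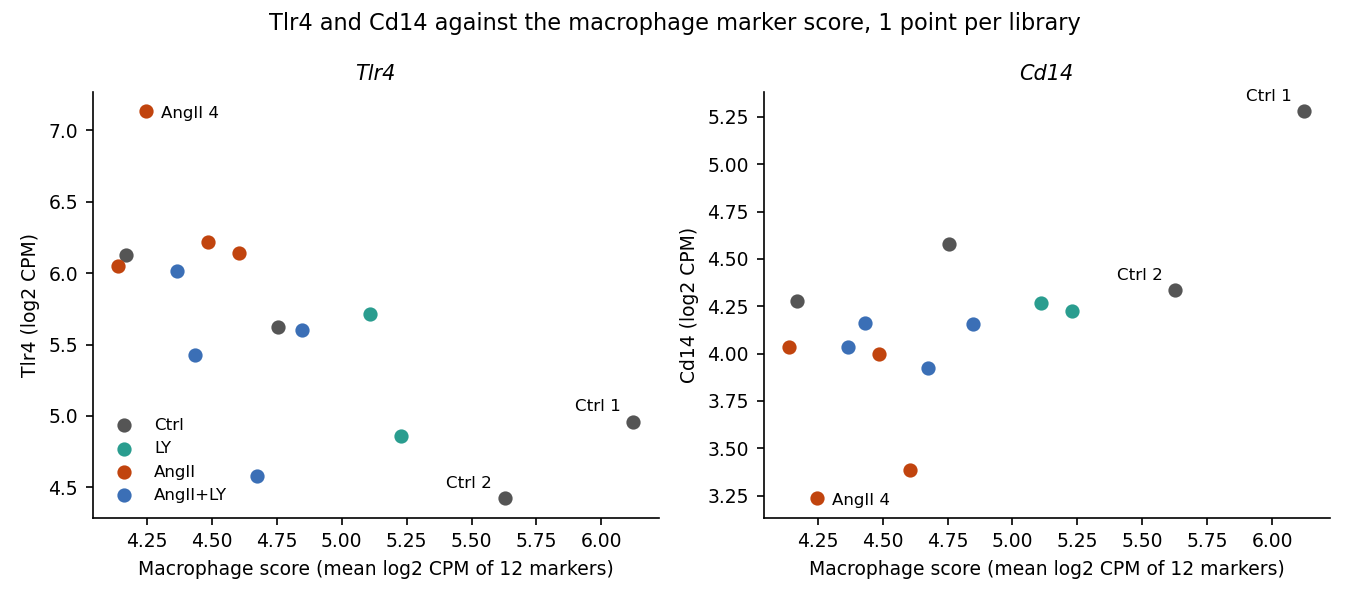
Level of Tlr4 (left) and Cd14 (right) in log2 CPM against the mean log2 CPM of 12 macrophage markers; each point is 1 library, coloured by group. Tlr4 ran downward (r = -0.70) and Cd14 upward (r = 0.68), the latter with Ctrl 1 and Ctrl 2 at the upper end of the score.

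Other markers differed between AngII+LY and AngII. Cardiomyocyte markers summed to 15678 to 44006 CPM in AngII+LY and to 6319 to 16186 CPM in AngII libraries, with all 10 genes higher (log2 difference 1.34, exact 2-sided permutation test, p = 0.0571). Valve interstitial markers summed to 5124 to 9202 CPM against 13950 to 15568 CPM, with 7 of 7 genes lower and no overlap (log2 difference -0.95, exact 2-sided permutation test, p = 0.0286, the smallest possible). AngII+LY 4 had the most cardiomyocyte and the fewest valve interstitial marker counts of all 14 libraries, and it also had the most Hmgb3 and the least Tlr2 of all, and the least Tlr4 within its group. The part of tissue makeup in the Tlr3, Tlr4, Tlr2 and Hmgb3 differences was not tested. Neutrophil markers were near 0, with 4.46 to 15.0 CPM over 8 genes in any library and Mpo at 0 in all LY, AngII and AngII+LY libraries. Ranges of the B cell (2.97 to 18.4 CPM) and T cell markers (1.33 to 9.56 CPM) were also low, and those of the erythroid markers high (8305 to 46551 CPM). The plasmacytoid dendritic cell list ran from 245 to 457 CPM and the melanocyte list from 5.84 to 386 CPM. The former sum was not split by gene (Siglech, Bst2, Ccr9, Tcf4 and Irf7), so it does not show that these cells were present. Adipocyte markers were at 377 to 884 CPM in AngII, 820 to 1078 CPM in Ctrl and 834 to 1284 CPM in AngII+LY libraries (AngII against Ctrl, log2 difference -0.67, exact 2-sided permutation test, p = 0.0857).

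For each member the 3 genes with the most similar profile over the 14 libraries were sought among 13610 genes averaging 100 counts or more, as a description. Hmgb1 ran most closely with Zfp948, Clk4 and Chaserr (r = 0.97, 0.96 and 0.96), whose longest transcripts hold 38.7 to 40.6% GC. Hmgb3 ran with Atp5f1a, Acadl and Slc25a4 (r = 0.98, 0.98 and 0.97), which encode mitochondrial proteins of ATP synthesis, fatty acid oxidation and nucleotide exchange. Tlr7 ran with Mrc1 (r = 0.87), Gpr161 and Cytip. Mrc1, the mannose receptor gene, is on the macrophage marker list, but the mean log2 level of all 12 markers gave r = 0.19 with Tlr7 (rho = -0.04). Tlr4 was nearest to Ap3m1, H3f3b and Cetn4 (r = 0.94 for each), and Tlr3 to Enpp4, Ppp1r15b and Lipa (r = 0.92, 0.90 and 0.87). Tlr2 was nearest to Cers5, Gm6277 and Zscan21 (r = 0.87, 0.85 and 0.85) and Hmgb2 to Parvg and Sumo2 (r = 0.81 and 0.78). Myd88 ran with Ctdsp2, Ttc5 and Wbp1l (r = 0.95, 0.95 and 0.94), and Cd14 with Cmtm7, Bex3 and Tkt (r = 0.94, 0.94 and 0.93). Among the members themselves, Hmgb1 and Tlr4 ran together (r = 0.77) and so did Myd88 and Cd14 (r = 0.76), while Hmgb1 and Myd88 ran opposite (r = -0.68). These libraries share group, depth and base composition, so the values describe them only.

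The other genes of the pathway were taken from 6 lists, and calls in them are by edgeR unless DESeq2 is named. Among 13 further HMG-box and alarmin ligands, 12 could be tested and Hmgb4 was at 0 in every library. By edgeR none was called between AngII and Ctrl, where DESeq2 called 1 higher (Il1a, DESeq2 adjusted p = 0.0060) and 1 lower (Fn1, 0.0397). Il33, an alarmin of the interleukin-1 family, fell in AngII+LY, from 89.9 ± 39.1 CPM in AngII (SD, n = 4) to 29.2 ± 6.01 CPM (SD, n = 4), without overlap (log2 fold change -1.62, SE 0.29, edgeR adjusted p = 0.0447, or -1.20 with GC content corrected). By edgeR it was the only ligand called there, and DESeq2 called Dcn as well (DESeq2 adjusted p = 0.0118). At an unadjusted p under 0.05, 5 of the 12 were lower with both agents than with AngII alone and 0 higher, beside 13.6% of all genes lower, with a list median of -0.78 against -0.02 for all genes. They included decorin (Dcn, log2 fold change -0.99, edgeR adjusted p = 0.107), versican (Vcan, -1.04) and Hmgn1 (-0.51). Dcn is also on the valve interstitial marker list, whose sum was lower in the same comparison (log2 difference -0.95). The part of tissue makeup in the differences of this ligand list was not tested. Between AngII and Ctrl, Vcan stood at 0.98, Hspd1 at 0.46, fibronectin (Fn1) at -0.63 and Il1a at 3.31 (edgeR adjusted p = 0.0769), the last with 1.81 to 54.6 CPM in AngII and 1.20 to 2.73 CPM in Ctrl libraries. With GC content corrected, Dcn was at -0.41 and Vcan at -0.66 in the former comparison, and Fn1 at -0.14 and Hspd1 at 0.76 in the latter.

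Of 21 further toll-like receptors, co-receptors and chaperones, 20 could be tested. Unc93b1, which carries endosomal toll-like receptors such as TLR3, TLR7 and TLR9 to their compartment, fell in AngII, from 60.7 ± 13.1 CPM in Ctrl (SD, n = 4) to 26.8 ± 12.4 CPM (SD, n = 4), without overlap (log2 fold change -1.16, SE 0.28, edgeR adjusted p = 0.0471, or -1.42 with GC content corrected). Its direction was opposite to that of the Tlr3 estimate. Hsp90b1, the chaperone that folds toll-like receptors, stood at 0.85 in AngII against Ctrl (edgeR adjusted p = 0.0537) and at -0.71 in AngII+LY against AngII (edgeR adjusted p = 0.0907), without overlap in either comparison; with GC content corrected these values were 0.56 and -0.29. Ly96, which encodes MD-2, had 9.35 to 15.7 CPM in AngII+LY and 16.5 to 33.2 CPM in AngII libraries (log2 fold change -0.72, edgeR adjusted p = 0.133, or -0.08 with GC content corrected). Tlr6 and Tlr8 were scarce, at 1.32 ± 0.169 and 1.18 ± 1.003 CPM in Ctrl and 0.169 ± 0.187 and 0.135 ± 0.27 CPM in AngII (SD, n = 4 each; edgeR adjusted p = 0.063 for both). Cxcr4 stood at -1.18 in AngII+LY against AngII (edgeR adjusted p = 0.18), and Tlr6 had 0.243 to 2.54 CPM against 0 to 0.408 CPM (edgeR adjusted p = 0.182). DESeq2 called 2 genes of this list higher and 2 lower in AngII against Ctrl, and 0 higher and 1 lower in AngII+LY against AngII.

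Of 20 adaptors, kinases and ubiquitin ligases edgeR called 0 in either comparison, and 1 was at an unadjusted p under 0.05 between AngII and Ctrl, beside 27.6% of all genes. This was Map3k7, the kinase TAK1, at 0.51 (edgeR adjusted p = 0.0684), without overlap, and DESeq2 called it (DESeq2 adjusted p = 0.00251). In AngII+LY against AngII it stood at -0.46 (-0.19 with GC content corrected), and Tbk1, a kinase downstream of TLR3, had 28.0 to 33.5 CPM against 42.1 to 56.4 CPM (log2 fold change -0.68, edgeR adjusted p = 0.0685), called by DESeq2 (DESeq2 adjusted p = 0.0110). In the NF-kB and IRF list of 16 genes, Ikbkg, the regulatory subunit of the IkB kinase, rose in AngII, from 36.5 ± 4.47 CPM to 79.4 ± 25.2 CPM (SD, n = 4 each), without overlap (log2 fold change 1.12, SE 0.22, edgeR adjusted p = 0.0439, or 0.76 with GC content corrected). The kinase subunit Chuk stood at 0.96 (edgeR adjusted p = 0.0519), and the inhibitor Nfkbib at -0.79 and the myeloid factor Irf8 at -1.23 (edgeR adjusted p = 0.0643 and 0.0513). In all, 2 of the 16 were higher and 9 lower at an unadjusted p under 0.05, beside 15.0% and 12.6% of all genes, with a list median of -0.53 against -0.05; DESeq2 called 2 higher and 4 lower. In AngII+LY against AngII the same genes stood at -0.87 for Chuk, 0.73 for Nfkbib and -0.60 for Ikbkg, and edgeR called 0 of the 16, whereas DESeq2 called Chuk and Nfkbib (DESeq2 adjusted p = 0.0199 and 0.0124). With GC content corrected, Chuk, Irf8 and Nfkbib were at 0.70, -0.95 and -0.22 in AngII against Ctrl. In AngII+LY against AngII, Chuk, Nfkbib and Ikbkg were then at -0.48, 0.45 and -0.15. The counts and medians of the lists were not taken after GC correction.

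Of 22 target genes of toll-like receptor signalling, 20 could be tested, and edgeR called 1 and DESeq2 4 in AngII against Ctrl, all higher. Ptgs2, which encodes cyclooxygenase 2, rose in AngII, from 5.04 to 11.6 CPM in Ctrl to 11.8 to 160.9 CPM in AngII libraries (log2 fold change 3.11, SE 0.74, edgeR adjusted p = 0.0471, or 2.57 with GC content corrected). The adhesion molecule gene Vcam1 had 880 to 1888 CPM in AngII and 442 to 649 CPM in Ctrl libraries (log2 fold change 1.29, edgeR adjusted p = 0.0684), and -0.96 in AngII+LY against AngII, which were 0.74 and -0.31 with GC content corrected. Nfkbiz stood at 0.87 and -0.75 in these comparisons, and Sele and Socs3 at -1.15 and 0.92 in the latter, where DESeq2 called Socs3 (DESeq2 adjusted p = 0.0488). Cxcl2 was scarce, with 0 to 0.36 CPM in AngII and 0.294 to 0.866 CPM in Ctrl libraries. At an unadjusted p under 0.05, 5 targets were higher and 4 lower in AngII, of 20 tested, beside 15.0% and 12.6% of all genes, with a list median of -0.31 against -0.05. For HMGB1 release, modification and chromatin partners, 13 of 14 genes could be tested. Xpo1, the nuclear export receptor through which acetylated HMGB1 leaves the nucleus, rose in AngII, from 69.1 ± 24.7 CPM to 154 ± 32.2 CPM (SD, n = 4 each), without overlap (log2 fold change 1.16, SE 0.25, edgeR adjusted p = 0.0439, or 0.74 with GC content corrected). It stood at -0.84 in AngII+LY against AngII (edgeR adjusted p = 0.0709), or -0.33 with GC content corrected, and was called there by DESeq2 (DESeq2 adjusted p = 0.0194). The deacetylase gene Sirt1 stood at 0.99 and -1.01, Trp53 at -0.79 in AngII against Ctrl, and Parp1 and Pycard at 0.55 and 0.58 in AngII+LY against AngII. With GC content corrected, Sirt1 was at -0.61 and Pycard at 0.87 in the latter comparison. Nlrp3 lay near the limit of detection, with 0 to 0.225 CPM in AngII and 0 to 1.32 CPM in Ctrl libraries. By edgeR none of these 5 genes was called, whereas DESeq2 called Sirt1 in both comparisons (DESeq2 adjusted p = 0.0118 and 0.0156) and Trp53 in AngII against Ctrl (0.0323). Against Ctrl, AngII+LY and LY libraries gave 0 genes called by edgeR in all 6 lists; DESeq2 called 1 ligand lower and 2 targets higher in AngII+LY and 0 genes in LY. The 5 called pathway genes (Xpo1, Ikbkg, Ptgs2, Unc93b1 and Il33) had edgeR adjusted p from 0.0439 to 0.0471, and each was called in 9 or 10 of 25 alternative settings, DESeq2 among them; none was called after the GC correction.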

How the data were processed

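Total RNA of aortic valve leaflets was purified with a Qiagen RNeasy kit and sequenced, 1 library per mouse. Per the labels, the authors checked reads with FastQC 0.12.1, trimmed them and aligned them to GRCm39 with HISAT2, and counted them with featureCounts (annotation, strand setting and handling of multiple matches not given in the sources used here). The deposited counts are called normalized by the authors but are whole-number read counts, with library totals from 20990655 to 73128220. Values of 2 (13373) outnumber values of 1 (10072) and 3 (4872) in the table, so low counts may come in pairs. Genes were matched to GENCODE vM39, which lacked 618 of the 56941 genes, holding 0.0361% of counts.

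Testing covered the 19145 genes averaging 10 counts or more and was done with edgeR 4.0.16 in R 4.3.3 (quasi-likelihood, legacy option off, TMM normalization, 1 fit of the 4 groups; the option was set explicitly, since this version's default is the legacy method). The estimated common dispersion came to 0.353. Calls needed a log2 fold change beyond 0.5 in size, as in the study's methods, and an adjusted p (Benjamini-Hochberg) below 0.05. The 95% intervals use the moderated degrees of freedom. Levels are CPM with TMM factors; scores and correlations use log2(CPM + 0.1) and 100000 permutations. GC correction removed a loess trend (span 0.3) from each library. The script was tested on simulated data, with a smaller dispersion than the value above and no GC trend. This test gives no error rate for these libraries. Alternatives were DESeq2 1.42.0, RLE normalization, no filter, the legacy method, only the groups compared, a replicate block, GC correction, mitochondrial genes left out and each library left out.

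The members and gene lists were chosen with earlier results of these data known. Named pathway genes are, per list and comparison, up to 4 with the smallest p among those under 0.05, and list genes at 0 everywhere. Promoter sequences and protein sequences were not used here. One of the genes with a similar profile is not reported here.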

Additional observations from a re-analysis of the deposited data

Results flagged for a closer look

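Of 28 combinations of a member and a group of 4 mice, 2 held a library far from the other 3 by Dixon's criterion at the 95% level, where chance flags about 1 in 20. Tlr4 in AngII 4 was at 140.2 CPM, against 66.3 to 74.3 CPM in the other AngII libraries. Tlr7 in AngII 1 was at 1.56 CPM, against 6.26 to 6.91 CPM in the others. AngII 4 had the fewest counts of all 14 libraries (20990655) and a mitochondrial share of 25.5%; the part of either in its Tlr4 level was not tested. With AngII 4 left out, the log2 fold change of Tlr4 against Ctrl was 0.72 in place of 1.03, and that of Tlr7 without AngII 1 was 0.91 in place of 0.58.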

How the results depend on the processing

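edgeR called 0 members in every comparison. Between AngII and Ctrl this count was 4 with DESeq2 and 0 to 1 with each library left out, where Cd14 was called without Ctrl 4 or AngII 1. Between AngII+LY and AngII it was 1 with DESeq2 (Tlr3) and 0 to 1 with each library left out. DESeq2 with AngII 4 or Ctrl 1 left out, chosen after seeing the data, called 1 member (Cd14) between AngII and Ctrl, and between AngII+LY and AngII it called 1 (Tlr3) without Ctrl 1 and 0 without AngII 4. Over all genes there were 555 calls between AngII and Ctrl. These were 741 with RLE normalization, 687 without mitochondrial genes and 2779 with DESeq2, and 0 with the legacy method, no filter, only the groups compared, the replicate block or the GC correction. Leaving out a library gave 0 to 2135, with 2135 without AngII 1 and 0 without Ctrl 1, Ctrl 2, Ctrl 3, AngII 3, AngII 4, LY 1, LY 2, AngII+LY 2 or AngII+LY 3. Between AngII+LY and AngII there were 176 calls, of which 79 were higher; they were 295 (167 higher) with RLE normalization, 102 (81 higher) after GC correction, 37 (6 higher) without mitochondrial genes, 2253 with DESeq2, 5 with no filter and 0 with the legacy method, only the groups compared or the replicate block. Leaving out a library gave 0 to 1057. Between AngII+LY and Ctrl the 0 calls became 13 with no filter.

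Some estimates near 0 changed sign; the cause was not tested. Between AngII and Ctrl, Hmgb2 was 0.016 with RLE normalization, 0.018 without mitochondrial genes, 0.013 with DESeq2 and 0.028 with DESeq2 without AngII 4 (0.11 without Ctrl 1). With DESeq2 without Ctrl 1, Tlr4 was -0.0102 between AngII+LY and Ctrl, and Hmgb2, Hmgb3 and Tlr3 were 0.00950, -0.00275 and -0.00115 between LY and Ctrl. After GC correction, Hmgb2 was 0.14 (0.15 with the replicate block) and Tlr7 0.16 (0.19) between AngII+LY and AngII, and the interaction of Hmgb2 was 0.27 (0.29). With the replicate block, Tlr4 was 0.16 between LY and Ctrl and the interaction of Tlr2 was 0.026 (0.23 with GC correction as well). The block changed no other direction and no call of a member. Same-numbered libraries share a number in their titles. Their deviations from the group means correlated from -0.18 to 0.14, and those of other pairs from -0.14 to 0.27. Deviations within a group cancel out, so this check cannot exclude shared handling. With each library left out, Hmgb2 ran from -0.10 to 0.072 and Hmgb3 from -0.14 to 0.44 between AngII and Ctrl. Between AngII+LY and Ctrl, Hmgb1 ran from -0.027 to 0.26, Tlr3 from -0.50 to 0.062, Tlr4 from -0.16 to 0.41 and Tlr7 from -0.076 to 0.57. Between LY and Ctrl, Hmgb2 ran from -0.32 to 0.094, Hmgb3 from -0.074 to 0.46, Tlr3 from -0.026 to 0.32, Tlr4 from -0.57 to 0.29 and Myd88 from -0.45 to 0.11. The interaction ran from -0.29 to 0.12 for Hmgb2 and from -0.87 to 0.77 for Tlr2.

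Without TMM factors, log2 differences of marker sums between AngII+LY and Ctrl were -0.027 for B cell, -0.091 for valve endothelial and -0.11 for adipocyte markers, and -0.011 for erythroid markers between AngII and Ctrl, each of the opposite sign with TMM factors. Valve interstitial markers between AngII+LY and Ctrl (-0.87), cardiomyocyte and adipocyte markers between AngII+LY and AngII (1.34 and 0.81) and adipocyte markers between AngII and Ctrl (-0.92) then reached the smallest exact permutation p, 0.0286. Depth limits Tlr9, where 3 counts are 0.0371 to 0.18 CPM in AngII libraries.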
